A study of Mus musculus with 12 samples.

Results

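The Zscan4 family and its 2-cell-like partners are a set of 10 mouse genes known by name: Zscan4a to Zscan4f, Zfp352, Tcstv1, Tcstv3 and Tmem92. The members were taken as those rows of the deposited count table that carry one of these names. Rows were matched by name alone, but the names were chosen with earlier results of these data known. Of the 10 genes 9 were present, among 26742 genes in the table, and Zscan4a was not analysed here. The 9 are 5 Zscan4 genes (Zscan4b, Zscan4c, Zscan4d, Zscan4e and Zscan4f) and 4 partners (Zfp352, Tcstv1, Tcstv3 and Tmem92).

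The samples were mouse embryonic stem (ES) cells of the B6J and the 129 genotype, read here as the C57BL/6J and 129 backgrounds, all labelled male. The 4 groups held 3 libraries each: B6J cells given 1 µM of the MEK inhibitor PD 0325901, B6J cells given DMSO, 129 cells given 1 µM of the inhibitor, and 129 cells given DMSO. Inhibitor or solvent was added daily until day 5, and all cells were grown in KO-DMEM with serum and leukaemia inhibitory factor. MEK is the kinase that activates ERK. Polyadenylated RNA was sequenced on a NovaSeq 6000 from stranded libraries. Each background stands for 1 genotype label with no clone named, so the background and the cell line cannot be told apart. Separate cultures for the 3 libraries of a group are not stated, and the p-values therefore measure spread among libraries that may be technical replicates.

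The 2-cell-like state is a rare and transient state of ES cells in which genes of the mouse 2-cell embryo are transcribed. The Zscan4 genes are a clustered family of the zygotic genome activation programme; their proteins act in telomere elongation and genome stability in ES cells, and cells pass in and out of a Zscan4-positive state. In mouse, Zscan4c, Zscan4d and Zscan4f encode full-length proteins with a SCAN domain and zinc fingers, while Zscan4a, Zscan4b and Zscan4e have shorter reading frames. Since such genes are active in few cells at a time, and these are bulk samples, more or fewer positive cells and more or less RNA per positive cell cannot be told apart.

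In GENCODE M21 on GRCm38 the Zscan4 genes lie together on chromosome 7: Zscan4b at chr7:10900740-10905050 (minus strand), Zscan4c at chr7:11005745-11010547 (plus), Zscan4d at chr7:11161374-11166159 (minus), Zscan4e at chr7:11306378-11310682 (minus) and Zscan4f at chr7:11397915-11402318 (plus). Zfp352 lies at chr4:90218820-90225702 (plus), Tcstv1 at chr13:119893388-119894785 (minus), Tcstv3 at chr13:120316878-120318178 (plus) and Tmem92 at chr11:94777217-94782703 (minus). All 9 are annotated as protein-coding, and none overlaps another annotated gene on either strand.

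The promoters of 5 of the 9 members were matched in a RefSeq table on GRCm38.p6 that holds 250 bases before and 50 bases after each gene start. They are shown because the members vary together across the libraries. The Zscan4 promoters shared a stretch of 159 bases, printed here from 5′ to 3′ on each gene's strand, with the motifs GATTCAA and TATAAA in capitals.
Zscan4c, chr7:11005550-11005708, plus strand: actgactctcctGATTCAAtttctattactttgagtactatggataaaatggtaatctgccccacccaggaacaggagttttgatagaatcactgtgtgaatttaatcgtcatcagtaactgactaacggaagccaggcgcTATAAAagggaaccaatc
Zscan4f, chr7:11397743-11397901, plus strand: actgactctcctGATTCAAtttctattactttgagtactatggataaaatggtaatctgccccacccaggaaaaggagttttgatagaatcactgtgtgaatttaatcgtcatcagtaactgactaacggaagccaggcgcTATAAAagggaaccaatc
Zscan4d, chr7:11166196-11166354, minus strand: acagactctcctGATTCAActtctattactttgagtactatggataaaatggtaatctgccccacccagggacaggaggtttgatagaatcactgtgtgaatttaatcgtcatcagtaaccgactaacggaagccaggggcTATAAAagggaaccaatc
Zscan4b, chr7:10905064-10905222, minus strand: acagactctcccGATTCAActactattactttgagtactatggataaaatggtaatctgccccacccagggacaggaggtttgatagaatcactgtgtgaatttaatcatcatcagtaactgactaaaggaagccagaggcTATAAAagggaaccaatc

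Counted from 1 at the 5′ end of these stretches, Zscan4f differed from Zscan4c by C73A alone, a 99.4% identity. Zscan4d differed from Zscan4c at 6 bases (96.2% identity) and Zscan4b at 10 bases (93.7%). One of the Zscan4b differences is T12C, directly before GATTCAA, so that the 8-letter form TGATTCAA was found in the Zscan4c, Zscan4d and Zscan4f promoters and not in that of Zscan4b. Searched on both strands, GATTCAA was present in 2.13%, TGATTCAA in 0.581% and TATAAA in 13.6% of the 32851 promoters in the table; the letters were chosen after the Zscan4 promoters had been read, TGATTCAA contains GATTCAA, and a match is a description of the sequence only. The promoter of Zfp352 held none of these 3 motifs. It holds a short repeat, shown for contrast over its first 150 bases with each exact copy of the unit GACAACACAC in capitals.
Zfp352, chr4:90218570-90218719, plus strand: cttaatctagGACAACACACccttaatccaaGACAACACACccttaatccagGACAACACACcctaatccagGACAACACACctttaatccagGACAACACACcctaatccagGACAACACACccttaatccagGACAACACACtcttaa
The unit occurred 9 times in the 300 bases, and 1 of the 32851 promoters held 2 or more copies on its strand.

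The transcripts of the Zscan4 genes are alike too, which limits how reads can be assigned among them. Of all 50-base stretches of its annotated transcripts, Zscan4b shared 90.1% with another gene, Zscan4e 89.0%, Zscan4f 86.8%, Zscan4c 85.5% and Zscan4d 49.6%. The shares were 31.4% for Tcstv3, 7.1% for Zfp352 and 1.9% for Tmem92, with Tcstv1 between Tcstv3 and Zfp352. How the counting treated reads with several positions is not given in the sources used here, so the split of counts among the Zscan4 genes is uncertain. Their sum also depends on how reads shared with Zscan4a and the Zscan4-ps copies were counted, and Tmem92 and Zfp352 rest on more distinctive sequence.

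Library totals ran from 62634533 to 96341637 counts. The 8 ES cell markers checked, among them Pou5f1, Sox2 and Nanog, had counts in every library, with a summed level of 2700 to 4957 CPM, the count divided by the scaled library size. In both 129 groups the library numbered 1 stood apart from the others: by chi-square per degree of freedom over genes, the inhibitor library differed from its replicates by 90.1 and 73.8, against 16.6 between those, and the DMSO library by 185 and 176, against 7.83. In B6J cells given the inhibitor, replicate 3 stood apart by 128 and 44.6 (27.9 between the others), and in B6J cells given DMSO replicate 1 by 94.0 and 90.3 (7.17). Results that include 129 cells are also given without their libraries numbered 1, a choice made after seeing the data. The B6J libraries that stood apart were left out only 1 at a time.

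The 9 genes were low in every group. Their summed level was higher with the inhibitor in B6J cells, and in 129 cells its mean was lower with the inhibitor, with libraries that overlapped. In B6J cells the sum was 482, 548 and 527 counts with the inhibitor, against 66, 79 and 52 counts with DMSO. This is 6.10 ± 0.563 CPM with the inhibitor and 0.828 ± 0.125 CPM with DMSO (SD, n = 3 each), a 7.37-fold higher level. In 129 cells the sum was 253, 747 and 771 counts with the inhibitor, against 319, 2127 and 2025 counts with DMSO. The first library of each 129 group was the lowest of its group, and apart from these the DMSO libraries lay above all others in the series. The 129 sums averaged 8.04 ± 4.05 CPM with the inhibitor and 21.9 ± 15.2 CPM with DMSO (SD, n = 3 each), a log2 ratio of −1.45, or −1.57 without both libraries numbered 1. The B6J ratio of 2.88 on the log2 scale stayed between 2.78 and 2.99 when each library was left out in turn, and the 129 ratio between −1.93 and −1.09.

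**Figure D1:**
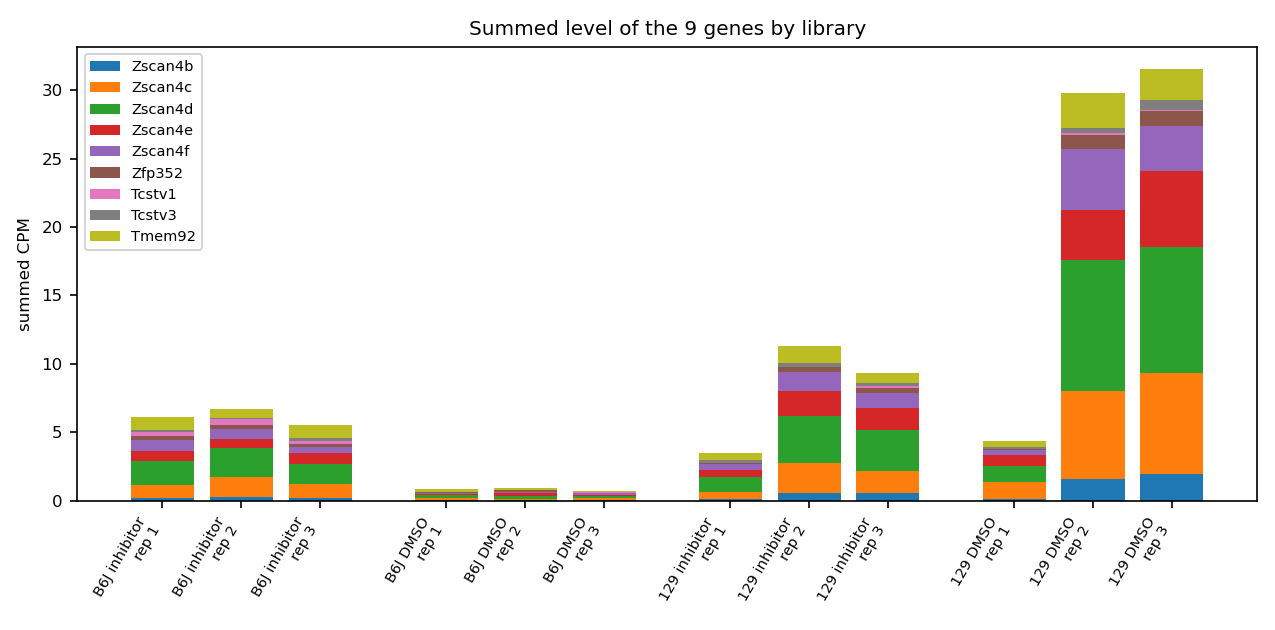
Summed level of the 9 genes, in CPM on a linear axis from 0, in each of the 12 libraries; the segments of a bar are the genes. The 3 B6J inhibitor libraries sit between 5.54 and 6.66 CPM, all above the B6J DMSO libraries at 0.702 to 0.951 CPM, while the 129 libraries numbered 1 sit at 3.49 CPM with the inhibitor and 4.38 CPM with DMSO, below the other libraries of their groups.

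In B6J cells most of the family was higher with the MEK inhibitor: 7 of the 9 genes rose, namely Zscan4c, Zscan4d, Zscan4e, Zscan4f, Tcstv1, Tcstv3 and Tmem92, at a Benjamini-Hochberg adjusted p under 0.05 in edgeR's quasi-likelihood test over 16627 genes. Of all tested genes 14.6% rose in this comparison. The median log2 fold change of the 9 was 2.94, against 0.00 over all tested genes, with a range of 1.79 to 3.72. For all 9 genes every inhibitor library lay above every DMSO library, which held for 24.3% of tested genes. None of the 9 was lower by edgeR, at an unadjusted p under 0.05, by DESeq2 or by limma-voom. DESeq2 called 8 higher (17.5% of its tested genes) and limma-voom 2, Tcstv1 and Tcstv3 (14.7%).

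Zscan4d, the family member best known from the 2-cell embryo, had 1.81, 2.13 and 1.49 CPM in B6J inhibitor libraries, against 0.227, 0.181 and 0.135 CPM in B6J DMSO libraries. The groups were well apart, and the level with the inhibitor was 9.90-fold higher (log2 3.31, SE 0.73, adjusted p = 0.00524). Zscan4c, the form best known from ES cells, had 0.899, 1.42 and 1.03 CPM with the inhibitor, against 0.151, 0.0963 and 0.189 CPM with DMSO. It rose 7.66-fold (log2 2.94, SE 0.71, adjusted p = 0.00856). Zscan4f, the third gene with a full-length reading frame, had 61, 59 and 47 counts with the inhibitor, against 6, 4 and 8 counts with DMSO, with a rise of 3.08 in log2 units (SE 0.89, adjusted p = 0.0209). Zscan4e had 58, 57 and 72 counts with the inhibitor, against 8, 20 and 6 counts with DMSO, where replicate 2 was the highest; it rose by 2.34 (SE 0.74, adjusted p = 0.0318). Zscan4b had 17, 24 and 16 counts with the inhibitor, against 2, 4 and 1 counts with DMSO. Its log2 fold change of 2.86 (SE 1.16) missed the threshold at an adjusted p of 0.0838. The fit takes its spread from all 12 libraries, those of 129 cells included. Without both 129 libraries numbered 1 Zscan4b passed in B6J at the same log2 fold change of 2.86 (adjusted p = 0.000626).

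Among the partners, Tcstv1, a gene of the 2-cell-stage variable group reported to lengthen telomeres in mouse ES cells, had 26, 38 and 26 counts in B6J inhibitor libraries, against 2, 2 and 2 counts in B6J DMSO libraries. It rose, with a log2 fold change of 3.72 (SE 0.92, adjusted p = 0.0095). Tcstv3, a second gene of that group, had 10, 4 and 16 counts with the inhibitor, against 2, 0 and 0 counts with DMSO. It passed the test (adjusted p = 0.022), and the ratio of its pooled, scaled counts was 13.9, with an exact 95% interval of 3.51 to 120 that covers counting error only. The interval takes every count as a separate event. Counts were even in 69.2% of the 104 non-zero values of the 9 genes, so it may be too narrow. Tmem92, which encodes a transmembrane protein, had 0.936, 0.632 and 0.988 CPM with the inhibitor, against 0.176, 0.193 and 0.0944 CPM with DMSO. It shares little sequence with other genes and rose 5.44-fold (log2 2.44, SE 0.60, adjusted p = 0.00886). Zfp352, a zinc finger gene transcribed in the 2-cell embryo, had 22, 22 and 16 counts with the inhibitor, against 2, 10 and 4 counts with DMSO, with a log2 fold change of 1.79 (SE 0.97, adjusted p = 0.189). Like Zscan4b, Zfp352 passed in B6J without both 129 libraries numbered 1 (log2 1.79, adjusted p = 0.0115). Leaving out each of the 12 libraries in turn, Zscan4c, Zscan4d, Tcstv1 and Tmem92 passed in all 12 fits, Zscan4f and Tcstv3 in 9 and Zscan4e in 7.

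**Figure D2:**
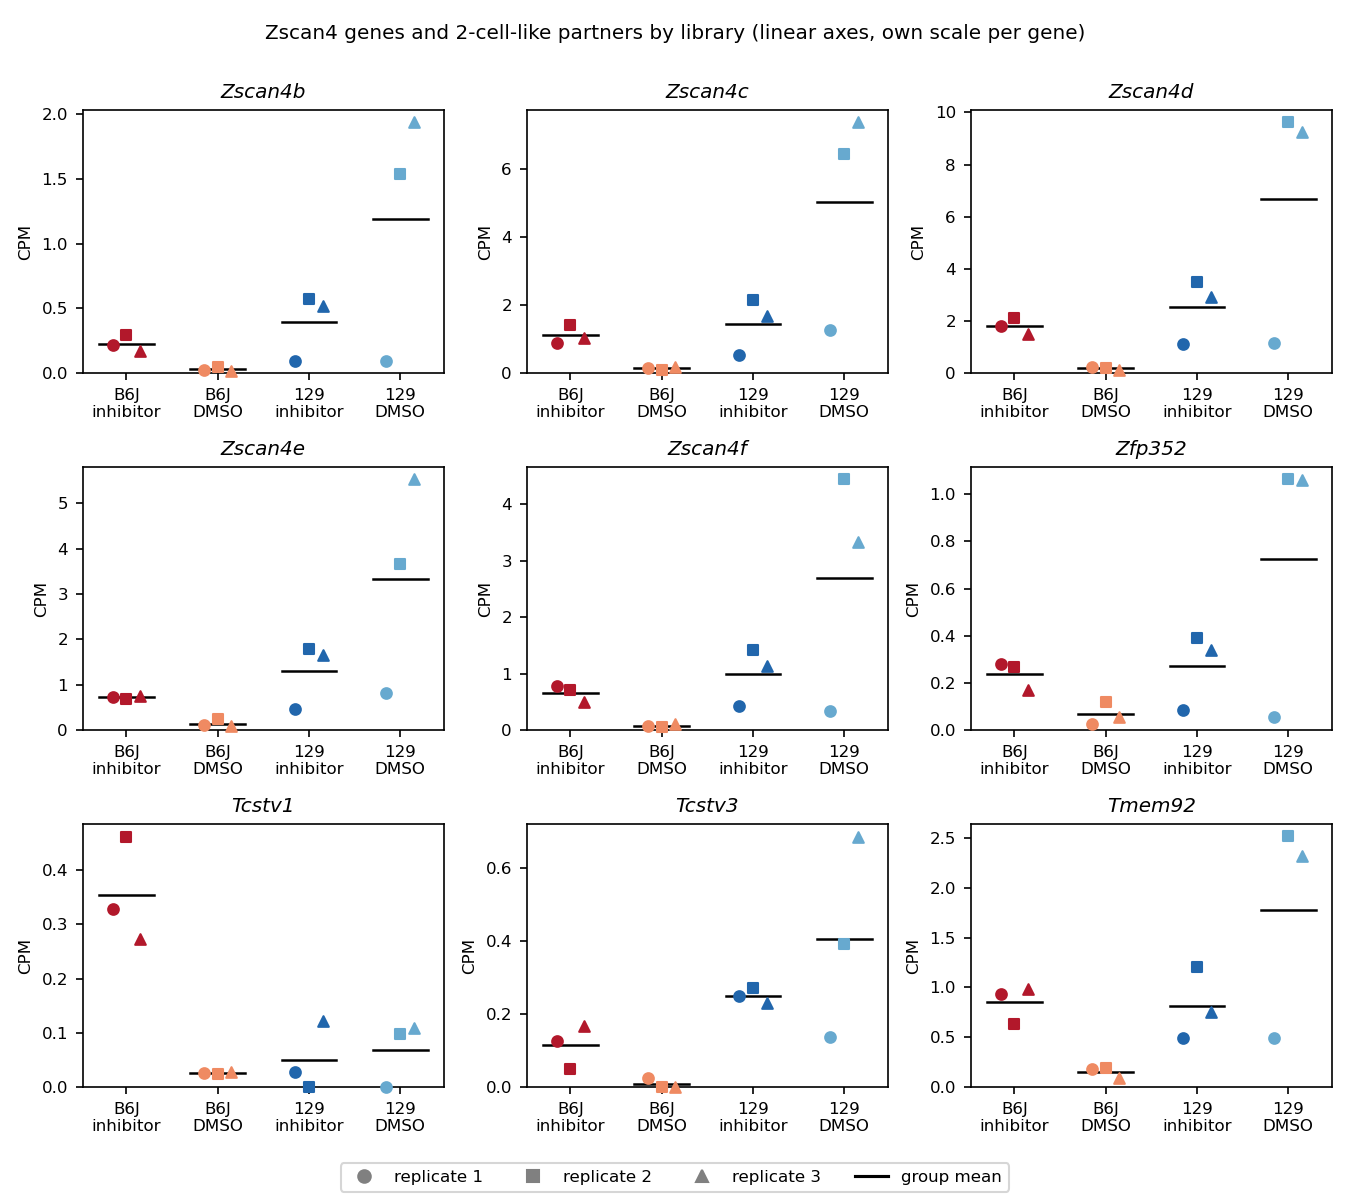
Level of each of the 9 genes in every library, in CPM on linear axes with a separate scale for each gene; points are libraries, their shape gives the replicate number, and bars are group means (n = 3). In B6J cells every inhibitor point lies above every DMSO point for all 9 genes, and in 129 cells the circles, replicate 1, lie far below the other DMSO points for most genes.

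In 129 cells the same genes had lower values with the inhibitor, and the test called 1 of the 9, Zscan4c, which fell; 18.2% of all tested genes fell in this comparison. The log2 fold changes of the 9 ranged from −1.80 to −0.36, with a median of −1.41 against −0.01 over all tested genes. For none of the 9 were the groups apart, because replicate 1 of the DMSO group overlapped the inhibitor group, and for Tcstv1 the other DMSO libraries did too. Of all tested genes 24.4% had all inhibitor libraries below all DMSO libraries. None was higher by edgeR, at an unadjusted p under 0.05, by DESeq2 or by limma-voom, and DESeq2 called 2 lower (19.7% of its tested genes) and limma-voom 0 (17.5%).

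Zscan4c had 0.525, 2.14 and 1.67 CPM in 129 inhibitor libraries, against 1.28, 6.46 and 7.38 CPM in 129 DMSO libraries, given in the order of the replicate numbers. The inhibitor library was the lower one at each replicate number, and its log2 fold change was −1.80 (SE 0.59, adjusted p = 0.0339); it passed in 8 of the 12 fits that left out 1 library, with adjusted p from 0.00138 to 0.115. Zscan4d had 1.13, 3.49 and 2.93 CPM with the inhibitor, against 1.17, 9.62 and 9.25 CPM with DMSO. In replicate 1 the values lay close together, in the other 2 they lay well apart, and the fit gave a log2 fold change of −1.41 (SE 0.61, adjusted p = 0.0928). Zscan4e had 33, 118 and 136 counts with the inhibitor, against 60, 261 and 354 counts with DMSO (log2 −1.36, adjusted p = 0.106). Zscan4f had 31, 94 and 93 counts with the inhibitor, against 24, 317 and 213 counts with DMSO (log2 −1.44, adjusted p = 0.124). Zscan4b had 7, 38 and 43 counts with the inhibitor, against 7, 110 and 124 counts with DMSO (log2 −1.58, adjusted p = 0.149). In both of these genes the libraries numbered 1 held few counts in either treatment.

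The log2 fold changes of the partners in 129 cells were negative as well, and none passed the test. Tmem92 had 0.497, 1.21 and 0.751 CPM with the inhibitor, against 0.494, 2.52 and 2.33 CPM with DMSO (log2 −1.12, SE 0.52, adjusted p = 0.114). Zfp352 had 6, 26 and 28 counts with the inhibitor, against 4, 76 and 68 counts with DMSO (log2 −1.41, adjusted p = 0.198). Tcstv3 was even across the inhibitor libraries, with 18, 18 and 19 counts, against 10, 28 and 44 counts with DMSO (log2 −0.69, adjusted p = 0.397). Tcstv1 was near its detection limit in both, with 2, 0 and 10 counts with the inhibitor, against 0, 7 and 7 counts with DMSO (log2 −0.36, adjusted p = 0.799).

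How many members passed in 129 cells depended on single libraries. None passed without inhibitor replicate 1, inhibitor replicate 3, DMSO replicate 2 or DMSO replicate 3. Without replicate 1 of the DMSO group 7 of the 9 fell, all but Tcstv1 and Tcstv3, where 19.0% of all tested genes fell, and the median log2 fold change was −1.91. Without both 129 libraries numbered 1 the same number, 7, fell (18.1% of all genes), with a median of −1.54. The inhibitor libraries of 8 genes, all but Tcstv1, then lay below the DMSO libraries. Groups of fewer libraries come apart more easily, and the share of all genes that did so was not computed. Same-numbered 129 libraries deviated together from their group means, and when the fit blocked on replicate number within 129 cells, 6 of the 9 fell (20.3% of all genes, median −1.12). Replicates 2 and 3 deviated together across numbers almost as much, so the block rests on a pairing by number that is not shown for them.

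**Figure D3:**
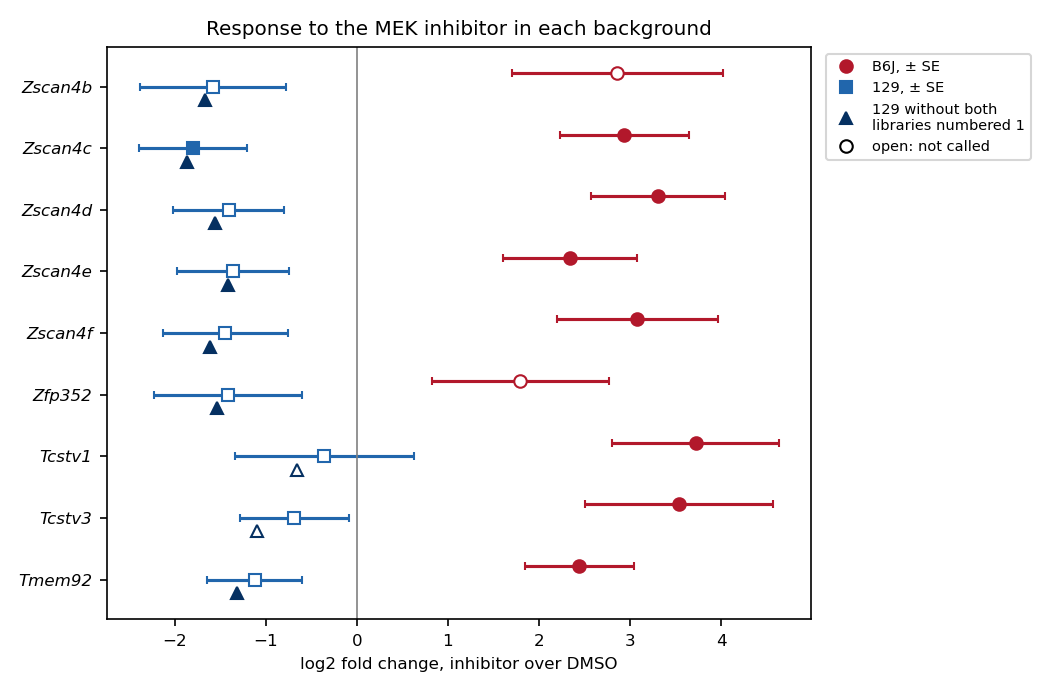
Log2 fold change of each gene, inhibitor over DMSO, with SE bars for B6J (circles) and 129 (squares) from the fit to all 12 libraries, and for 129 without both libraries numbered 1 (triangles, no error drawn); filled symbols passed the test and open ones did not. All circles lie to the right of 0, between 1.79 and 3.72, and all squares to the left, between −1.80 and −0.36.

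Markers of other cell types also differed among the libraries. The summed levels of both lists were higher in the B6J inhibitor libraries than in the B6J DMSO libraries. The 20 fibroblast markers, which ES cultures on feeder cells can hold, were detected in every library, with none at 0. Their summed level was 7369 to 12020 CPM in B6J inhibitor libraries, against 5045 to 5998 CPM in B6J DMSO libraries. In 129 cells it was 8075 to 12680 CPM in inhibitor libraries, against 7132, 3767 and 3836 CPM in DMSO libraries, where replicate 1 was the high one. Of the 16 primitive endoderm markers 15 had counts in every library, and Afp was at 0 in 5 of the 12: B6J inhibitor replicates 1 and 2, B6J DMSO replicates 1 and 3, and 129 inhibitor replicate 3. The 16 summed to 2908 to 4257 CPM in B6J inhibitor libraries, against 2167 to 2296 CPM in B6J DMSO libraries, and to 4531, 2866 and 2992 CPM in 129 inhibitor libraries, against 13010, 1631 and 1648 CPM in 129 DMSO libraries. Replicate 1 of the 129 DMSO group was thus high in both marker lists and low in the 9 genes. Single primitive endoderm markers were mixed in B6J, where 15 tested genes had 9 positive and 6 negative log2 fold changes. Of these 0 were called higher and 1 lower, where 14.6% of all tested genes rose and 16.5% fell. The call depended on 129 libraries: without both 129 libraries numbered 1, 7 of the 15 were higher and 6 lower in B6J. The share of all genes called in B6J in that fit is not given here. Genes of high level weigh most in the sum, such as Sparc at 1802 CPM with the inhibitor and 920 CPM with DMSO in B6J. Gata4 averaged 1.94 and 3.87 CPM in these groups.

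With the fibroblast marker level as a covariate the direction in 129 cells turned: all 9 genes had positive log2 fold changes, with a median of 1.17, and 1, Zscan4f, was higher (log2 1.66, adjusted p = 0.0157; 15.5% of all genes were higher). In B6J cells the same covariate left all 9 higher (15.2% of all genes), with a median of 4.65. The fibroblast markers themselves differed between the treatments. With the inhibitor 13 of the 20 were higher and 2 lower in 129, and 10 were higher and 0 lower in B6J. Of all tested genes 17.4% rose and 18.2% fell in 129, and 14.6% and 16.5% in B6J. The covariate thus varies with the treatment, and the fit does not give a response free of feeder cells. It also holds Pdgfra, at 143 CPM in 129 DMSO replicate 1, against 5.9 and 6.87 CPM in replicates 2 and 3. Pdgfra is on the primitive endoderm list too, and the part of those markers in these results was not tested.

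**Figure D4:**
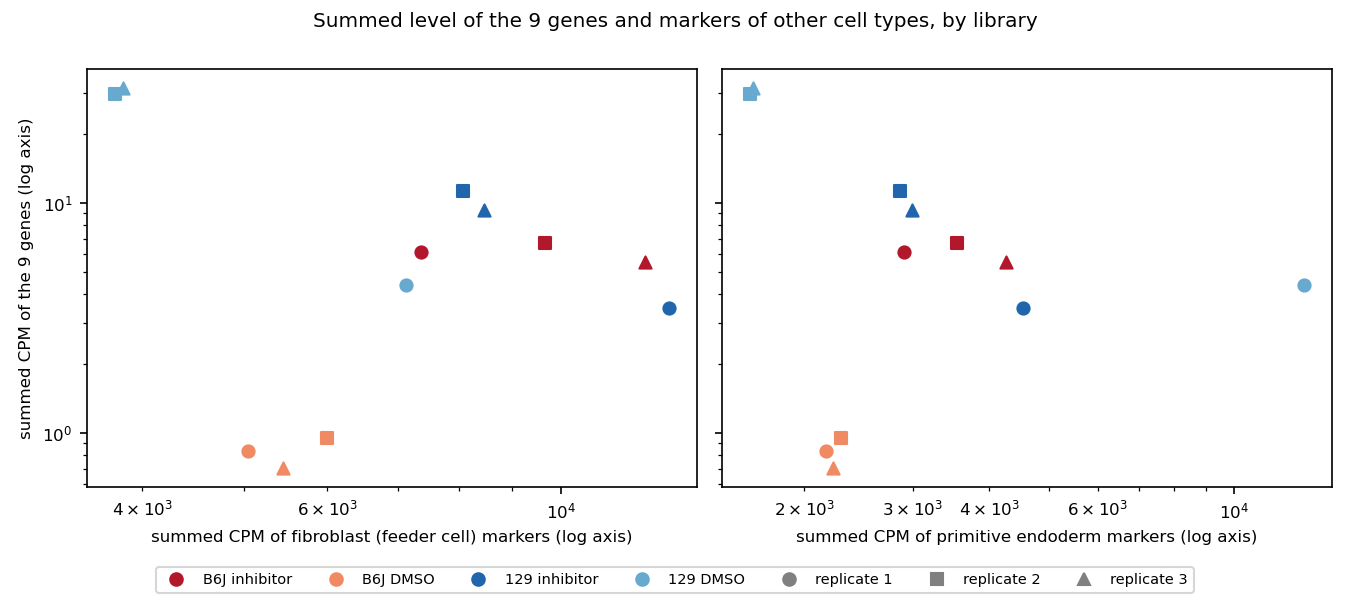
Summed CPM of the 9 genes (vertical, log axis) against the summed CPM of fibroblast markers (left) and primitive endoderm markers (right), both on log axes; each point is a library, its colour the group and its shape the replicate number. Replicate 1 of the 129 DMSO group (light blue circle) stands at 13010 CPM of primitive endoderm markers and 4.38 CPM of the 9 genes, against 1631 and 1648 CPM of these markers and 29.8 and 31.6 CPM of the 9 genes in the other 2 libraries of its group.

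The responses, positive in B6J and negative in 129 for all 9 genes without the covariate, were compared by the interaction term, the B6J response minus the 129 response. It was called for 2 of the 9 genes, Zscan4c at 4.74 (SE 0.92, adjusted p = 0.0337) and Zscan4d at 4.72 (SE 0.95, adjusted p = 0.0364), both higher in B6J; 0.710% of all tested genes were called in that direction. The other 7 genes had values of 3.21 to 4.53 with adjusted p from 0.0524 for Tmem92 to 0.297 for Zfp352. All 9 had an unadjusted p under 0.05, the median of the 9 was 4.23 against 0.00 over all tested genes, and none was lower by edgeR, at an unadjusted p under 0.05, by DESeq2 or by limma-voom. The count depended on the fit. It was 9 without replicate 1 of the 129 DMSO group (1.90% of all genes), 7 without both 129 libraries numbered 1 (1.91%) and 6 with the replicate block within 129 (1.43%), and DESeq2 called 7 (2.43%) and limma-voom 0 (0.421%). When single libraries were left out, Zscan4c passed in 2 of 12 fits, with adjusted p from 0.00205 to 0.0972, and Zscan4d in 1.

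The comparison of the backgrounds in DMSO asks how the lines differ without treatment. In B6J cells 8 of the 9 were lower than in 129 cells, all but Tcstv1, where 10.5% of all tested genes were lower. The summed level was 0.828 ± 0.125 CPM in B6J DMSO libraries and 21.9 ± 15.2 CPM in 129 DMSO libraries (SD, n = 3 each), 26.5-fold lower in B6J, or 37.1-fold without replicate 1 of the 129 group. The median log2 difference was −5.11, against −0.01 over all tested genes. For 7 of the genes all B6J libraries lay below all 129 libraries (17.9% of tested genes did). Without the 129 library numbered 1 this held for all 9, and the share of all genes was not computed for that smaller set. None was higher by edgeR, at an unadjusted p under 0.05, by DESeq2 or by limma-voom; DESeq2 called 8 lower (12.5% of its tested genes) and limma-voom 5 (9.54%).

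The full-length Zscan4 genes were lower in B6J: Zscan4c by −5.11 (SE 0.73, adjusted p = 0.000514), Zscan4d by −5.19 (SE 0.76, adjusted p = 0.00061) and Zscan4f by −5.11 (SE 0.88, adjusted p = 0.00181), each on the log2 scale. Of the genes with shorter reading frames, Zscan4b differed by −5.26 (adjusted p = 0.0052) and Zscan4e by −4.53 (adjusted p = 0.00132). Tcstv3 had 2 counts over the B6J DMSO libraries and 82 counts over the 129 DMSO libraries (adjusted p = 0.00189). The ratio was 0.0215, with an exact 95% interval of 0.00256 to 0.0801 for counting error that may likewise be too narrow. Tmem92 differed by −3.50 (SE 0.60, adjusted p = 0.00168) and Zfp352 by −3.40 (SE 0.94, adjusted p = 0.024); Zfp352 passed in 8 of the 12 fits that left out 1 library, with adjusted p from 0.000849 to 0.0886. Tcstv1 held 6 counts over the B6J libraries and 14 counts over the 129 libraries, a difference of −1.37 (SE 1.09, adjusted p = 0.428) that did not exceed the spread.

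With the inhibitor the levels of the backgrounds lay closer together. The summed level was 6.10 ± 0.563 CPM in B6J inhibitor libraries and 8.04 ± 4.05 CPM in 129 inhibitor libraries (SD, n = 3 each), a log2 ratio of −0.40 that stayed between −0.76 and −0.07 when single libraries were left out. The test called 1 of the 9 genes, Tcstv1, higher in B6J, where 8.90% of all tested genes were higher. Tcstv1 had 0.329, 0.462 and 0.273 CPM in B6J inhibitor libraries, against 0.0276, 0 and 0.121 CPM in 129 inhibitor libraries. The groups did not overlap, and the log2 difference was 2.71 (SE 0.83, adjusted p = 0.0414); it passed in 2 of the 12 fits that left out 1 library, with adjusted p from 0.0115 to 0.136.

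The other 8 genes had log2 differences of −1.10 to 0.06 between the backgrounds under the inhibitor, none called. Tcstv3 was the only gene besides Tcstv1 whose groups were apart, with B6J libraries at 0.0486 to 0.168 CPM and 129 libraries at 0.230 to 0.272 CPM (log2 −1.10, adjusted p = 0.292); 18.9% of tested genes lay wholly above and 19.6% wholly below. Tmem92 averaged 0.852 ± 0.192 CPM in B6J and 0.819 ± 0.360 CPM in 129 (SD, n = 3 each; log2 0.06, SE 0.52). None of the 9 was lower by edgeR, at an unadjusted p under 0.05, by DESeq2 or by limma-voom. Without both 129 libraries numbered 1 the picture changed to 5 genes lower in B6J, Zscan4b to Zscan4f, at −1.28 to −0.77, and Tcstv1 higher; 12.3% and 11.3% of all genes were called in these directions.

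The make-up of the sum is given as shares of counts, with no test. Zscan4 genes together gave 71.2 to 78.8% of the summed counts in B6J inhibitor libraries, 64.6 to 75.0% in B6J DMSO libraries, 75.5 to 84.6% in 129 inhibitor libraries and 84.3 to 86.8% in 129 DMSO libraries. Zscan4d held the largest pooled share in each group: 29.5% in B6J with the inhibitor, 21.8% in B6J with DMSO, 31.3% in 129 with the inhibitor and 30.5% in 129 with DMSO. In single libraries the order varied: Zscan4d had the most counts in 1 of 3 B6J DMSO libraries, with Zscan4e ahead in replicate 2 (20 counts against 15) and Zscan4c in replicate 3 (14 against 10), and in 129 DMSO replicate 1 Zscan4c had 93 counts against 85. Tmem92 held 14.1% of the pooled counts in B6J with the inhibitor, 18.8% in B6J with DMSO, 10.1% in 129 with the inhibitor and 8.16% in 129 with DMSO. Zfp352 held 3.85%, 8.12%, 3.39% and 3.31% in the same groups. Tcstv1 held 5.78% of the pooled counts in B6J with the inhibitor, 3.05% in B6J with DMSO, 0.678% in 129 with the inhibitor and 0.313% in 129 with DMSO.

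Levels of different genes were compared per kilobase of annotated exon. Zscan4d had the highest mean in all 4 groups, with 0.797 ± 0.140 CPM per kilobase in B6J with the inhibitor, 0.0795 ± 0.0202 in B6J with DMSO, 1.11 ± 0.542 in 129 with the inhibitor and 2.94 ± 2.10 in 129 with DMSO (SD, n = 3 each). In B6J with DMSO Zscan4e at 0.0785 ± 0.0486 lay within the SD of Zscan4d, and the uncertain split of reads among the Zscan4 genes touches their whole order. In B6J with the inhibitor Zscan4c came next at 0.491 ± 0.120 CPM per kilobase, further from Zscan4d than the SD of either, and then Zscan4e, Tmem92 and Zscan4f at 0.406 to 0.337, with steps between them smaller than the larger SD of each pair. Tcstv1 followed at 0.254 ± 0.0694, and Tcstv3, Zscan4b and Zfp352 closed the order at 0.147 to 0.105. In the 129 groups the SDs were so wide that neighbours in the order did not differ beyond them, except the last pair: Zfp352 at 0.119 ± 0.0727 and Tcstv1 at 0.0355 ± 0.0454 CPM per kilobase with the inhibitor, and Zfp352 at 0.319 ± 0.256 and Tcstv1 at 0.0494 ± 0.0430 with DMSO. Tcstv1 was thus last in both 129 groups, and in B6J with the inhibitor it was the sixth. In B6J with DMSO all 9 lay between 0.0108 and 0.0795.

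Across the 12 libraries each gene's log2 level was correlated with that of the sum of the other 8, as a description over points that share their library. Pearson's r was 0.969 to 0.994 for the 5 Zscan4 genes, 0.972 for Tmem92, 0.901 for Tcstv3, 0.891 for Zfp352 and 0.336 for Tcstv1. By the same measure the 10 tested genes most like the summed level were Gm12794 (0.978), Gm8300 (0.969), Gm2016 (0.963), Gm5039 (0.961), Zscan4-ps2 (0.958), Gm13119 (0.956), Zscan4-ps3 (0.956), Gm5662 (0.956), Spata31d1a (0.953) and Slfn5 (0.947). All but the last pair were on a separate list of genes of the 2-cell-like state, also chosen with earlier results of these data known. The Zscan4-ps copies share sequence with the Zscan4 genes.

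That list names 64 other genes of the state, of which 55 were in the table and 37 passed the filter on low counts. In B6J cells 21 of the 37 rose with the inhibitor (14.6% of all tested genes did), with a median log2 fold change of 2.44, or 2.31 with Tdpoz3, which had no count in B6J with DMSO, at a floor of 3 counts over the group and without Tdpoz4, which had none in either B6J group. Gm5662 averaged 1.29 ± 0.288 CPM in B6J with the inhibitor and 0.0949 ± 0.0616 CPM with DMSO (SD, n = 3 each; adjusted p = 0.00524). Gm5039, Gm8300 and Zscan4-ps3 also rose, by 2.84, 2.69 and 2.90 on the log2 scale. In 129 cells 6 of the 37 rose and 1, Sp110, fell, where 17.4% of all tested genes rose and 18.2% fell. The median was −0.84. Without both libraries numbered 1, 7 of 38 tested genes of the list rose and 14 fell. In that fit 18.1% of all tested genes fell, and the share that rose is not given here. Pramel7, a Prame-like gene, averaged 8.38 ± 2.30 CPM in 129 with the inhibitor and 0.594 ± 0.246 CPM with DMSO (SD, n = 3 each), and rose in 129 (log2 3.82, adjusted p = 6.13e-05) as well as in B6J (log2 3.81, adjusted p = 0.000153). Ddit4l rose in both, by 0.69 in 129 and 0.50 in B6J. The interaction was called for 3 of the 37 (0.710% of all tested genes), Gm5662, Abcb5 and Pramef25, at 4.90, 3.33 and 4.21. These and Sp110 are named after their values were seen. Without both 129 libraries numbered 1 the interaction was called for 19 of 38 tested genes of the list (1.91% of all genes). In DMSO 24 of the 37 were lower in B6J than in 129 (10.5% of all tested genes were), with a median of −3.36.

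**Figure D5:**
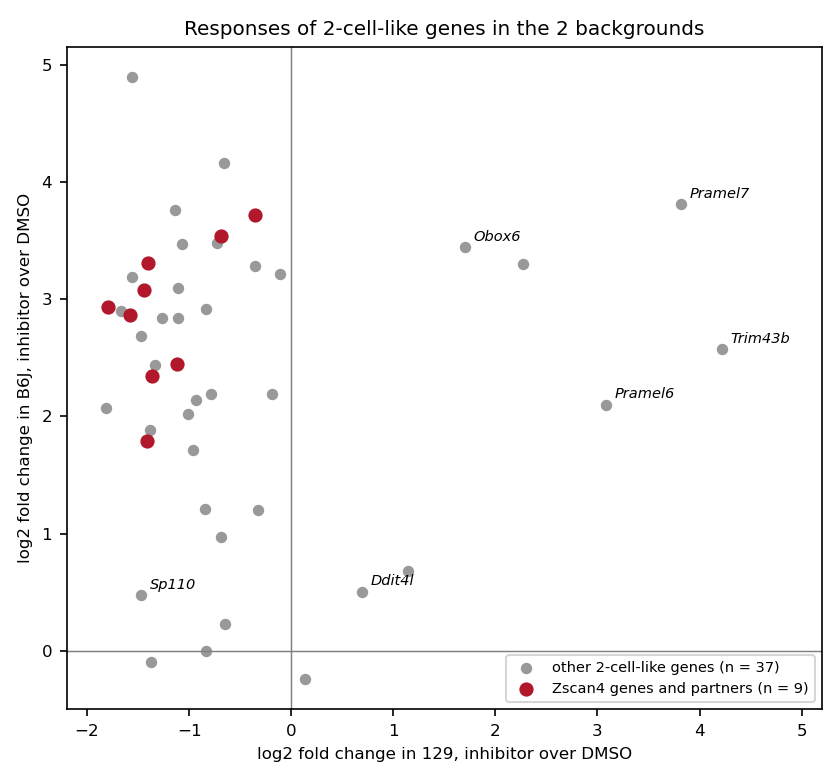
Log2 fold change with the inhibitor in B6J (vertical) against 129 (horizontal) for the 9 genes (red) and 37 other genes of the 2-cell-like state (grey). The 9 genes sit in the upper left, with B6J values of 1.79 to 3.72 and 129 values of −1.80 to −0.36, while a few grey genes, such as Pramel7 at 3.81 and 3.82, sit in the upper right; the names on the plot were chosen after the values were seen.

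Genes that act upstream of the state were listed apart. Duxf3, the name of a Dux gene in GENCODE M21 and so of a transcription factor that activates Zscan4 in mouse, had 4, 2 and 10 counts in B6J with the inhibitor, 2, 0 and 4 in B6J with DMSO, 4, 11 and 8 in 129 with the inhibitor and 0, 20 and 19 in 129 with DMSO. In the fit to all 12 libraries its differences did not pass the test. The log2 fold changes were 1.21 in B6J (adjusted p = 0.513) and −0.85 in 129 (adjusted p = 0.511). The B6J minus 129 difference in DMSO was −2.82 (adjusted p = 0.107). Without both 129 libraries numbered 1 this difference was −3.42 and passed (adjusted p = 0.00902), while neither response did. Duxf3 shares 47.0% of its 50-base stretches with another gene. Of 9 tested activators 2 rose and 1 fell in B6J, and 4 rose in 129, where 14.6% of all tested genes rose and 16.5% fell in B6J and 17.4% rose in 129. Kdm5b, an H3K4 demethylase, rose by 0.48 in B6J (adjusted p = 0.011) and 0.50 in 129 (adjusted p = 0.00853). Trp53, which encodes p53, rose by 0.26 in B6J (adjusted p = 0.0393) and 0.41 in 129 (adjusted p = 0.00342). Dppa3 fell in B6J, with 42.1 ± 2.63 CPM with the inhibitor and 57.3 ± 5.46 CPM with DMSO (adjusted p = 0.0252), and rose in 129, with 16.7 ± 2.58 CPM and 10.7 ± 1.69 CPM (SD, n = 3 each; adjusted p = 0.00338), and its interaction was −1.10 (adjusted p = 0.0187). Dppa2, which acts above Dux in mouse, rose in 129 by 0.71 (adjusted p = 0.0128) and had a log2 fold change of 0.13 in B6J (adjusted p = 0.636). Its interaction was −0.58 (adjusted p = 0.397). Without both 129 libraries numbered 1 this interaction was −0.48 and passed (adjusted p = 0.0337).

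Of 25 tested repressors of the state 5 rose and 5 fell in B6J, and 6 rose and 5 fell in 129, against 14.6% and 16.5% of all tested genes in B6J and 17.4% and 18.2% in 129. Trim28, the corepressor of KRAB zinc finger proteins, rose by 0.59 in both backgrounds (adjusted p = 0.000143 in B6J and 0.000145 in 129). Zfp57, a KRAB zinc finger protein of imprinted regions, rose by 1.02 in B6J (adjusted p = 1.44e-05) and 0.99 in 129 (adjusted p = 1.65e-05). Uhrf1, a factor of maintenance DNA methylation, rose by 0.61 in B6J (adjusted p = 0.000124) and 0.55 in 129 (adjusted p = 0.000252), and L3mbtl2, a subunit of a variant Polycomb complex, by 0.45 and 0.44 (adjusted p = 0.000887 and 0.00089). Setdb1, the H3K9 methyltransferase that Trim28 recruits, fell in B6J, with 181 ± 4.57 CPM with the inhibitor and 212 ± 3.47 CPM with DMSO, and rose in 129, with 241 ± 19.1 CPM and 163 ± 7.08 CPM (SD, n = 3 each). Its interaction of −0.80 was called (adjusted p = 0.00264), opposite in sign to that of the Zscan4 genes, and the link between the genes was not tested. Smchd1, a chromatin protein that represses Dux, fell in both, by 0.61 in B6J and 1.06 in 129.

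Of 17 tested telomere genes 2 rose and 2 fell in B6J, where 14.6% of all tested genes rose and 16.5% fell, and 1 rose and 4 fell in 129, where 17.4% rose and 18.2% fell. Without both 129 libraries numbered 1, 2 rose and 4 fell in B6J, and the share of all genes called in B6J in that fit is not given here. Wrap53, which brings telomerase to Cajal bodies, rose by 0.50 in B6J (adjusted p = 0.00219) and 0.30 in 129 (adjusted p = 0.0319). Terf1, a subunit of shelterin, rose in B6J by 0.44 (adjusted p = 0.0131) and had a log2 fold change of −0.01 in 129 (adjusted p = 0.957). Tinf2, another shelterin subunit, fell by 0.20 in B6J (adjusted p = 0.0343) and 0.34 in 129 (adjusted p = 0.00151). Gar1, a protein of the telomerase particle, fell by 0.24 in B6J (adjusted p = 0.0228) and had a log2 fold change of −0.13 in 129 (adjusted p = 0.177). Pot1b, which binds single-stranded telomeric DNA, fell in 129 by 0.43 (adjusted p = 0.00717), and Dmc1, a meiotic recombinase, by 0.64 (adjusted p = 0.0453); in B6J they had log2 fold changes of −0.07 (adjusted p = 0.67) and −0.41 (adjusted p = 0.181). Spo11, named after its values were seen, was the other gene that fell in 129.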

How the data were processed

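Whole-number read counts per gene were deposited by the authors as 1 table for 12 libraries, without normalization. Per the submitters' processing notes STAR 2.7.10, SAMtools, HTSeq 0.6.1p1 and DESeq were used, with the builds mm10 and GRCm38; the sources used here do not give the annotation, strand setting or treatment of multiply placed reads. GENCODE M21 held 26725 of the 26742 identifiers. The files had 0 unused columns of values. Counts were even in 69.2% of the 104 non-zero member values, so halved counts served as an alternative.

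Genes passing filterByExpr (minimum count 10, minimum total 15) were scaled by TMM and fitted together over 4 group means with edgeR 4.0.16 in R 4.3.3 (glmQLFit, glmQLFTest), which was tested on simulated data. Adjusted p-values are Benjamini-Hochberg over all 16627 genes, with a threshold of 0.05, and are edgeR's unless DESeq2 1.42.0 or limma-voom (limma 3.58.1) is named. CPM used TMM-adjusted totals; log2 levels for correlations had a prior count of 2. Ratios of pooled counts have exact 95% intervals (SciPy 1.17.1), which take every deposited count, not halved, as a separate event. Other alternatives were the filter, the replicate block, a fibroblast marker covariate, the Zscan4 or partner genes alone, and each library left out.

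The members and lists were chosen with earlier results of these data known. Every member is named; from each other list up to 6 called genes of highest mean CPM, in B6J first, and the 10 genes most correlated with the summed level. The labels give the groups shared replicate numbers but no shared culture or day. Deviations of same-numbered libraries from the group means, over all tested genes, correlated at 0.442, 0.295 and 0.222 in 129 and at −0.188, 0.088 and −0.17 in B6J. In 129, inhibitor replicate 2 with DMSO replicate 3 gave 0.194, and inhibitor replicate 3 with DMSO replicate 2 gave 0.209. The block was fitted within 129 for this reason, but these values do not show that replicates 2 and 3 are paired by number.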

Additional observations from a re-analysis of the deposited data

Results flagged for a closer look

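The response to the inhibitor differed between the backgrounds for 2 of the 9 genes by edgeR's interaction term. Zscan4c had a B6J response minus 129 response of 4.74 on the log2 scale (SE 0.92, adjusted p = 0.0337). At equal replicate numbers its inhibitor library was the higher one in 3 of 3 cases in B6J and the lower one in 3 of 3 cases in 129. Equal numbers are not shown to be pairs, and in 129 the groups overlapped. Zscan4d had a difference of 4.72 (SE 0.95, adjusted p = 0.0364) with the same directions and the same overlap. With single libraries left out Zscan4c passed in 2 and Zscan4d in 1 of 12 fits, and limma-voom called neither. These genes share 85.5% and 49.6% of their 50-base stretches with other genes, and replicate 1 of 129 with DMSO held 93 and 85 of their counts, against 461 and 687 in replicate 2.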

How the results depend on the processing

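The alternatives without both 129 libraries numbered 1 and with the block within 129 were chosen after seeing the data. In the 129 response, members called were 2 by DESeq2, 0 by limma-voom, 7 without both 129 libraries numbered 1, 6 with the replicate block within 129, and 0 to 7 with 1 library left out; the fibroblast covariate turned the log2 fold changes of Zscan4b, Zscan4c, Zscan4d, Zscan4e, Zscan4f, Zfp352, Tcstv1, Tcstv3 and Tmem92 to 1.94, 0.35, 1.17, 0.70, 1.66, 1.88, 1.59, 0.52 and 0.59. Tcstv1 ranged from −2.13 to 0.16 (values above 0 in 3 fits) with single libraries left out. In the B6J response limma-voom called 2 members, the fit without both 129 libraries numbered 1 called 9, leave-outs 5 to 9, and the summed log2 ratio of the partners alone was 2.61. For the interaction, members called were 7 by DESeq2, 0 by limma-voom, 6 with the covariate, 7 without both, 6 with the block within 129 and 0 to 9 with leave-outs. Genes called over the table, 246 as reported, were 798, 163, 809, 608, 460 and 73 to 586 under these. They were 156 with the replicate block over all libraries, although no shared culture or day is given for equal numbers. In DMSO limma-voom and the stricter filter each called 5 members, leave-outs 7 to 8. Under the inhibitor members called were 0 with no filter, the stricter filter or the replicate block, 6 without both and 0 to 1 with leave-outs. There the partners alone had a summed log2 ratio of 0.17; Zfp352 turned to 0.021 with limma-voom, 0.14 with the replicate block, 0.24 with the block within 129, 0.13 with the covariate and Tmem92 to −0.19 without both. With leave-outs Zfp352 ran from −0.63 to 0.14, Zscan4c from −0.77 to 0.009 and Tmem92 from −0.20 to 0.44. Some of these counts have their share of all genes in the sections above, and the others are given without one. The cause of these changes was not tested.

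Counts limit these genes: with 2 counts of Tcstv3 over B6J DMSO libraries and at most 10 of Tcstv1 in a 129 library, differences of these genes have wide errors.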

Other observations

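The 3 Zscan4 copies with pseudogene names, Zscan4-ps1, Zscan4-ps2 and Zscan4-ps3, which lie in the same cluster on chromosome 7 and are annotated as protein-coding in GENCODE M21, were summed as a check on the family members left out of the 9. Their sum was 170, 132 and 126 counts in B6J with the inhibitor, against 36, 14 and 18 counts in B6J with DMSO. In 129 it was 68, 253 and 280 counts with the inhibitor, against 94, 778 and 819 counts with DMSO. Zscan4-ps2 shares 87.6%, Zscan4-ps3 72.5% and Zscan4-ps1 48.4% of its 50-base stretches with another gene. The groups therefore stand in the order given by the named Zscan4 genes, in counts that cannot be taken as independent of them.

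A few other genes of the 2-cell-like state had an order of groups unlike that of the 9 genes. Obox6, an oocyte-specific homeobox gene, averaged 3.48 ± 0.561 CPM in B6J with the inhibitor, 0.317 ± 0.184 CPM in B6J with DMSO, 1.75 ± 0.548 CPM in 129 with the inhibitor and 0.539 ± 0.363 CPM in 129 with DMSO (SD, n = 3 each). It rose in both backgrounds by edgeR (adjusted p = 0.000518 in B6J and 0.0216 in 129). Pramel6 averaged 0.261 ± 0.0809 CPM in B6J with the inhibitor, 0.0598 ± 0.0183 CPM in B6J with DMSO, 2.55 ± 1.02 CPM in 129 with the inhibitor and 0.299 ± 0.0732 CPM in 129 with DMSO (SD, n = 3 each). It also rose in both (adjusted p = 0.00485 in B6J and 7.39e-05 in 129). Both genes are named after their values were seen.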
